A study of Mus musculus with 250 samples.

Results

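The genes described here encode the enzymes that join glutathione, glucuronate or sulfate to other molecules. They were taken as every gene whose symbol starts with Gsta, Gstm, Gstp, Gstt, Gstk, Gsto, Gstz, Ugt1a, Ugt2, Ugt3 or Sult among the array's probe sets that carry 1 symbol, with the probe set of the highest mean used for each gene. This gave 43 of the 18194 genes measured: 20 glutathione transferases, 10 UDP-glucuronosyltransferases and 13 sulfotransferases. No Ugt1a gene qualified, because the 3 probe sets of that locus each list several of its genes. RNA of whole tissue from female FVB mice was hybridised to 250 Affymetrix mouse arrays. The tumor-bearing mice carried the transgenes MMTV-rtTA and TetO-NeuNT, in which doxycycline turns on an activated Neu (Her2) receptor from a mammary tumor virus promoter. Control mice were littermates with TetO-NeuNT only. Doxycycline at 2 mg/mL, in water sweetened with 5% sucrose, was given to both groups from week 8 of life, so the drug is shared by all mice, and tissue was taken when the tumor of the bitransgenic mouse measured 1 cm. Breast, liver, spleen, thymus and blood cells freed of plasma were each represented by 25 tumor-bearing mice and their 25 age- and cage-matched controls.

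These enzymes carry out the conjugation phase of drug and hormone metabolism. Glutathione transferases couple electrophiles to the tripeptide glutathione and are grouped into classes named after Greek letters, UDP-glucuronosyltransferases of the endoplasmic reticulum add glucuronate from UDP-glucuronate, and cytosolic sulfotransferases transfer sulfate from the activated donor PAPS. Hepatocytes are the main site of all these reactions, and several of the genes are known to differ between male and female mouse liver.

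Values are log2 intensities, and a change is the log2 difference of a tumor-bearing mouse minus its matched control, given as mean ± SE over the pairs of a tissue. A gene is said to have risen or fallen where limma's paired test passed at an adjusted p under 0.05 over all genes. Levels are compared within a tissue and within a gene, since the tissues look separately normalized and probe sets differ in brightness. Some arrays stood apart, with a median correlation under 0.9 with the other arrays of their tissue and group: 2 controls in liver, 1 in breast, and 2 in each of spleen, blood and thymus. The control of liver pair 2 had a median correlation of 0.336 and a mean hepatocyte marker level of 10.8, where the median over liver arrays was 14.1, so it goes against its label. Markers also went against the label in spleen (2 controls and 1 tumor-bearing mouse) and in thymus (2 controls). In breast pairs 1 and 2 the Erbb2 signal was lower in the tumor-bearing mouse (-0.69 and -0.61), against a mean change of 1.28 ± 0.15 over all 25 pairs. Results are therefore given both for all pairs and without the pairs that hold an array standing apart.

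In liver, conjugating enzyme genes were lower in tumor-bearing mice, and none was called higher. Over all 25 pairs 9 of 43 fell, where 2.28% of all genes were called lower and 7.89% higher. Without pairs 2 and 7, whose controls stood apart, 33 of 43 fell over 23 pairs, where 16.6% of all genes were called lower and 13.7% higher. The 33 included the first 9, and the median change of the 43 genes was -0.42 against -0.01 over all genes. By family, 16 of 20 glutathione transferases, 9 of 10 UDP-glucuronosyltransferases and 8 of 13 sulfotransferases fell over the 23 pairs. Pair 2 went the other way for 30 of these 33 genes and pair 7 for 21 of them, while pair 10, the next, did so for 6.

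**Figure D1:**
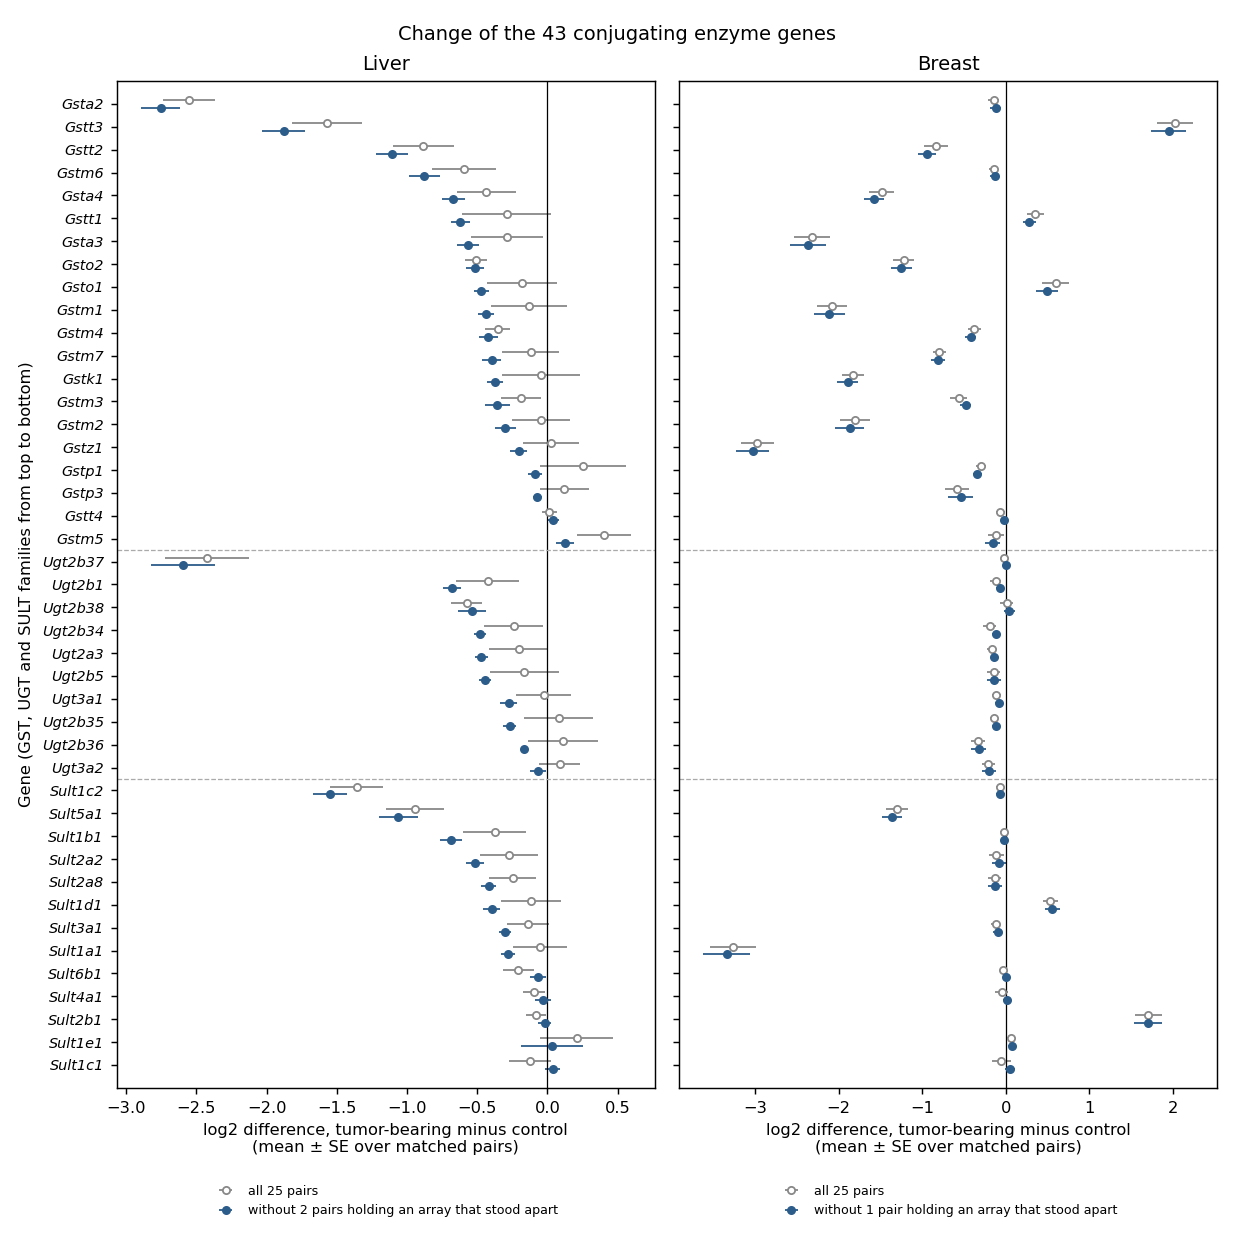
Log2 difference, tumor-bearing minus matched control, of the 43 genes in liver (left) and breast (right), as mean ± SE. Open points use all 25 pairs and filled points leave out the pairs with an array standing apart; dashed lines divide the 3 families. In liver 39 of the 43 filled points lie below 0, and in breast Gstt3 and Sult2b1 stand at the far right while Sult1a1 and Gstz1 stand at the far left.

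The alpha class gene Gsta2, known as a gene induced through the antioxidant response, fell most. Its level in tumor-bearing liver ran from 6.90 to 10.49 with a median of 8.69, and in control liver from 8.49 to 12.12 with a median of 11.33. The groups overlapped, but 24 of 25 pairs were lower in the tumor-bearing mouse. The change was -2.55 ± 0.19, a 5.87-fold fall (adjusted p = 5.54e-11), and -2.75 ± 0.14 over the 23 pairs. The one pair against it was pair 7 (0.09). A separate probe set that lists Gsta1, Gsta2 and Gm3776 fell by a like amount (-2.73 ± 0.25), so the signal cannot be assigned to Gsta2 alone. Gsta3, another hepatic alpha transferase, changed by -0.29 ± 0.26 over all pairs without passing (adjusted p = 0.551) and by -0.56 ± 0.08 over the 23 (adjusted p = 2.98e-06). Its second, dimmer probe set passed over all pairs as well (-0.66 ± 0.18, limma adjusted p = 0.0159 over all probe sets) and gave -0.85 ± 0.10 over the 23. Gsta4, which handles aldehydes of lipid peroxidation, gave -0.43 ± 0.21 (adjusted p = 0.237) and -0.67 ± 0.08 (adjusted p = 3.82e-07) in the same order.

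Among the glutathione transferases the next largest changes were those of Gstt3 and Gstt2 of the theta class, which acts on small halogenated and sulfate-bearing substrates. Gstt3 had a median of 9.81 in tumor-bearing liver (7.59 to 11.25) and 11.60 in control liver (6.57 to 11.86). All but pairs 2 and 7 were lower, the change was -1.57 ± 0.25 (adjusted p = 4.88e-05), and it was -1.88 ± 0.15 over the 23 pairs. Gstt2 had a median of 10.65 (9.32 to 11.25) against 11.71 (6.55 to 12.05). It fell by 0.88 ± 0.22 over all pairs (adjusted p = 0.00673) and by 1.11 ± 0.11 over the 23, and the lowest control value of both genes belonged to pair 2. Gstt1 ran from 11.33 to 12.83 in tumor-bearing liver, and the 23 kept controls from 12.92 to 13.20, so the kept groups did not overlap. The control of pair 2 was at 5.03, and with it the change of Gstt1 was -0.29 ± 0.32 (adjusted p = 0.628) in place of -0.62 ± 0.07 (adjusted p = 5.71e-08). Gstt4 was at 4.69 and 4.65 in the kept medians and was not called in either set of pairs.

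The mu class moved less, and the pi class was not called. Gstm4 fell over all pairs (-0.35 ± 0.09, adjusted p = 0.00757), with medians of 8.99 and 9.53. Over the 23 pairs Gstm6 (-0.88 ± 0.11), Gstm1 (-0.44 ± 0.05), Gstm7 (-0.40 ± 0.07), Gstm3 (-0.36 ± 0.09) and Gstm2 (-0.30 ± 0.07) fell as well. The second probe set of Gstm3 also fell (-0.50 ± 0.12), but the second, dimmer one of Gstm7 did not (0.01 ± 0.08, limma adjusted p = 0.964 over all probe sets). Gstm5 was the mu gene without a fall (0.13 ± 0.06, adjusted p = 0.141), and in the 15 pairs of higher sample numbers alone it was called higher (0.21, adjusted p = 0.0293). The pi class genes Gstp1, the transferase most studied in tumors, and Gstp3 gave -0.09 ± 0.05 and -0.07 ± 0.03 over the 23 pairs (adjusted p = 0.178 and 0.0987). Mu genes resemble each other in sequence, so part of a signal can come from a neighbour. All 4 probe sets of Gstm1 fell over the 23 pairs, by between 0.44 and 0.62. That cannot tell the genes apart, since neighbours fell too. Over all pairs the Gstm1 probe set used here (-0.13 ± 0.27) and another (-0.33 ± 0.19) were not called. The dimmer ones were (-0.53 ± 0.07 and -0.48 ± 0.12, limma adjusted p = 4.18e-06 and 0.00826 over all probe sets).

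The omega, kappa and zeta classes each have other duties besides conjugation. Gsto2, a dehydroascorbate reductase, fell over all pairs (-0.51 ± 0.08, adjusted p = 3.9e-05), but its medians of 3.71 and 4.27 lie near the lower limit of 3.50 that was set for all values. Gsto1 (-0.47 ± 0.05), the mitochondrial and peroxisomal Gstk1 (-0.37 ± 0.06) and Gstz1 (-0.20 ± 0.06), the maleylacetoacetate isomerase of tyrosine breakdown, fell over the 23 pairs only.

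Among the UDP-glucuronosyltransferases, enzymes for steroids, bile acids and drugs, Ugt2b37 stood far from the rest. Its levels in tumor-bearing liver spread from 5.18 to 10.58 with a median of 7.35, and in control liver from 5.28 to 11.81 with a median of 9.84. The change was -2.42 ± 0.30, a 5.36-fold fall seen in 23 of 25 pairs (adjusted p = 9.63e-07), and -2.59 ± 0.23 over the 23 pairs. Its spread within a group was also wide, with an SD of 1.27 in the kept tumor-bearing mice and 0.81 in the kept controls. Ugt2b38 had medians of 5.18 (4.73 to 6.15) and 5.66 (5.16 to 7.10) and fell by 0.57 ± 0.11 (adjusted p = 0.000488). The highly expressed members fell by less, and only without pairs 2 and 7. They were Ugt2b1 (-0.68 ± 0.06, with kept groups that did not overlap), Ugt2b34 (-0.48 ± 0.05), Ugt2a3 (-0.47 ± 0.05), Ugt2b5 (-0.44 ± 0.04), Ugt3a1 (-0.27 ± 0.06), Ugt2b35 (-0.27 ± 0.05) and Ugt2b36 (-0.16 ± 0.03). Ugt3a2 was not called (-0.07 ± 0.06, adjusted p = 0.41). The 3 probe sets of the Ugt1a locus changed by between 0.02 and 0.09 over all pairs and by between -0.23 and -0.12 over the 23.

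Sulfotransferases showed the same order of a few clear falls and many small ones. Sult1c2, of the phenol sulfotransferase family, had a median of 7.97 in tumor-bearing liver (7.0 to 8.78) and 9.34 in control liver (5.56 to 10.51). Only pair 2 went the other way, the change was -1.36 ± 0.19 (adjusted p = 7.94e-06), and over the 23 pairs it was -1.55 ± 0.12 with groups that did not overlap, since the lowest kept control was at 8.96. Sult5a1, a member with few known substrates, fell from a median of 9.81 (6.57 to 10.81) to 9.0 (7.51 to 9.94), a change of -0.94 ± 0.21 (adjusted p = 0.00229). Over the 23 pairs Sult1b1, which sulfates thyroid hormone (-0.69 ± 0.08), and the hydroxysteroid sulfotransferases Sult2a2 (-0.52 ± 0.06) and Sult2a8 (-0.42 ± 0.05) fell. So did Sult1d1, which sulfates catecholamines (-0.40 ± 0.06), the amine sulfotransferase Sult3a1 (-0.30 ± 0.04) and the phenol sulfotransferase Sult1a1 (-0.28 ± 0.05). The estrogen sulfotransferase gene Sult1e1 varied most among the 23 kept controls (SD 1.40), and ran from 5.50 to 10.27 in tumor-bearing and from 4.74 to 9.64 in control liver. With that spread its change was 0.21 ± 0.26 (adjusted p = 0.678), higher in 14 pairs and lower in 11. Sult1c1, Sult2b1, Sult4a1 and Sult6b1 were not called in either set of pairs, and Sult6b1 had its kept median at the lower limit in both groups.

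**Figure D2:**
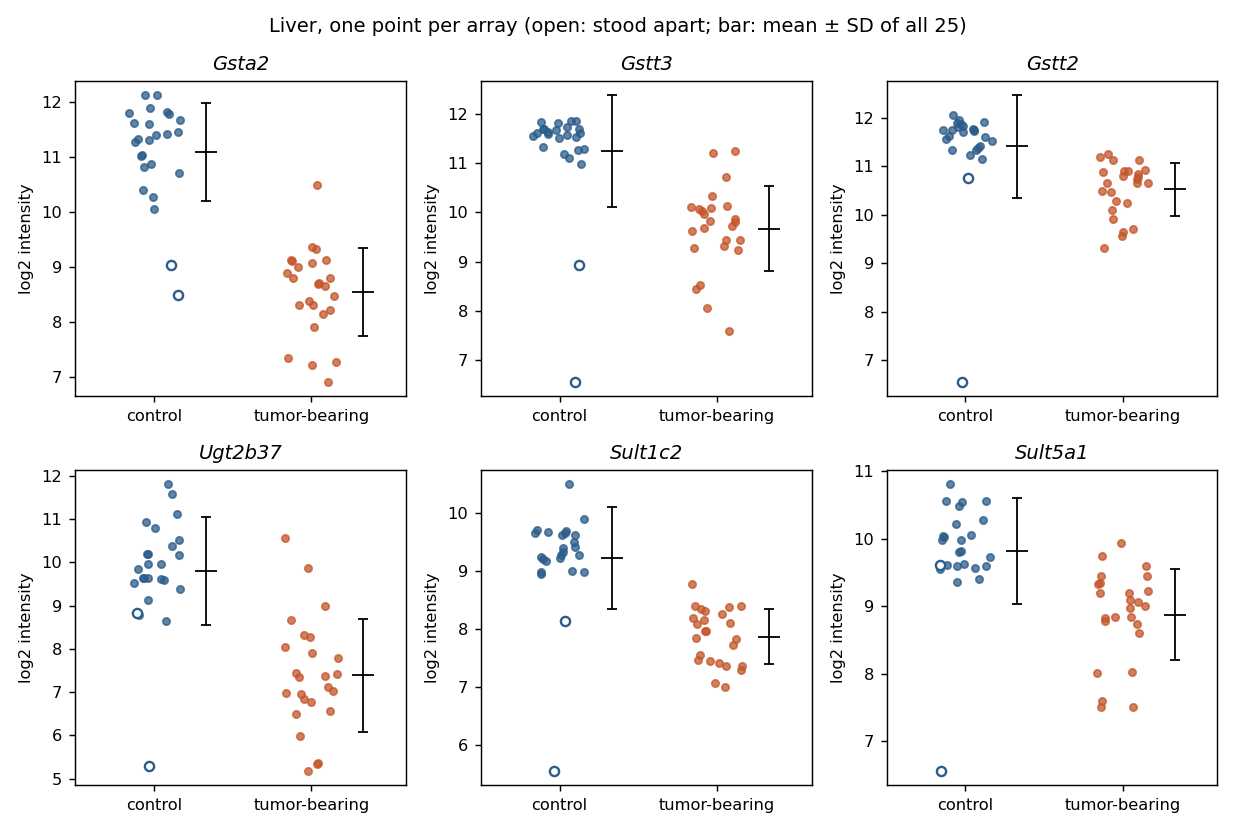
Log2 intensity of 6 genes in each liver array, 25 controls in blue and 25 tumor-bearing mice in orange, with open circles for the 2 controls that stood apart and bars for mean ± SD of all 25. The open circles include the lowest control of Gstt3 (6.57), Gstt2 (6.55), Ugt2b37 (5.28), Sult1c2 (5.56) and Sult5a1 (6.57).

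The falls in liver were not limited to one block of sample numbers, but their calls were uneven. Among the 15 pairs with the higher sample numbers 32 of 43 genes fell and 1 rose, where 11.7% of all genes were called lower and 12.1% higher, and all 32 were among the 33 above. In the 10 pairs with the lower numbers, which hold both arrays that stood apart, 1 gene fell, where 0.055% of all genes were called lower and 0.467% higher. Leaving out those arrays, 20 genes fell over the 8 remaining pairs, where 3.57% were called lower and 3.45% higher. Gsta2 changed by -2.88 in the higher numbers and by -2.51 in the 8 pairs of the lower numbers. For Ugt2b37 the values were -2.59 and -2.60, and for Gstt3 they were -1.93 and -1.79.

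Other genes of these pathways moved unevenly in the same livers. Their counts are read against the 16.6% of all genes called lower and 13.7% called higher over the 23 pairs. Over the 23 pairs 13 of 24 genes of glutathione synthesis, use and NRF2 targets fell and 3 rose, among them the carbonyl reductase Cbr1 (-0.59 ± 0.08) and the glutathione-degrading enzyme Chac1 (1.40 ± 0.14). The family of the membrane-bound glutathione transferases, which also holds Ptges, Ltc4s and Alox5ap, had 3 of 6 genes lower, with Mgst3 (-0.83 ± 0.06). It had 2 higher, with the leukotriene factor Alox5ap (0.91 ± 0.08). Of 7 genes of UDP-glucuronate supply and glucuronide hydrolysis 3 fell, among them Ugdh, which makes UDP-glucuronate (-0.66 ± 0.07), and 2 rose. Of 14 genes of sulfate activation and hydrolysis 4 fell and 3 rose, with the PAPS synthases going opposite ways (Papss2 -0.55 ± 0.07, Papss1 0.37 ± 0.06). Among 16 transporters of conjugates 12 fell, such as Abcc3 (-0.56 ± 0.08), and 2 rose, with Slc22a7 at 1.33 ± 0.09. Other transferases of the conjugation phase fell in 8 of 12 genes and rose in 1, with Inmt at -1.01 ± 0.12 and Nnmt at 1.05 ± 0.14. In all 25 pairs these lists had few calls, between 1 and 3 genes in either direction where any was called. Of all genes 2.28% were then called lower and 7.89% higher.

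Hepatocyte markers over the 23 pairs had 6 of 13 genes lower and 2 higher with a median change of -0.08, beside -0.42 for the conjugating enzymes. Of all genes 16.6% were called lower and 13.7% higher over the 23 pairs, and 2.28% and 7.89% over all pairs. Liver genes known to be higher in females fell in 6 of 6 genes (median -1.26), and those known to be higher in males fell in 3 of 7 and rose in 1. Neutrophil markers rose in 12 of 12 genes in all pairs (median 2.89). Their mean level ran from 7.08 to 10.7 in tumor-bearing and from 5.59 to 6.39 in control liver, without overlap. Of 7 endothelial markers 4 rose in all pairs and 7 over the 23. In whole tissue, fewer cells of a type and less RNA per cell cannot be told apart, and the part of these markers in the falls was not tested. The ratio of 3 prime to 5 prime Gapdh signal, a measure of RNA integrity, changed by -0.05 ± 0.04 in liver (sign-flip permutation p = 0.272, adjusted p = 0.389 over 10 tests).

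In breast, where the tumor-bearing sample is the tumor tissue, the genes went both ways: 5 of 43 rose and 21 fell, where 30% of all genes were called higher and 32.3% lower. Without pair 4, whose control stood apart, the counts were 5 and 21 again, where 31% and 34.8% of all genes were called. The glutathione transferases held most of the calls, with 3 higher and 14 lower of 20. UDP-glucuronosyltransferases had 5 of 10 lower, and sulfotransferases 2 higher and 2 lower of 13. In breast 21 of the 43 genes had a median within 1 log2 unit of the lower limit, among them 9 of 10 UDP-glucuronosyltransferases and 9 of 13 sulfotransferases, so the changes of those families rest on few genes with a clear signal.

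Sult1a1 fell most in breast. It ran from 6.81 to 10.69 with a median of 8.10 in tumor-bearing mice, and from 9.10 to 12.49 with a median of 11.53 in controls. The change was -3.27 ± 0.28, a 9.62-fold fall in 24 of 25 pairs (adjusted p = 1.73e-10). The exception was pair 1 (0.67), which also had lower Erbb2 in the tumor-bearing mouse. Gstz1 had a median of 7.97 (6.76 to 9.98) against 11.14 (8.66 to 11.85), fell in all 25 pairs and changed by -2.97 ± 0.20, or 7.86-fold (adjusted p = 1.7e-11). Gstk1 also fell in all 25 pairs, from a median of 10.57 (8.87 to 11.01) to 8.48 (7.62 to 9.76), by 1.83 ± 0.14 (adjusted p = 3.83e-11). For all 3 genes most controls lay above the highest tumor-bearing mouse.

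Of the alpha and mu genes, 2 of 3 and 6 of 7 fell. Gsta3 had a median of 4.40 (3.65 to 5.77) against 6.85 (4.24 to 8.90) and a change of -2.32 ± 0.21, and Gsta4 a median of 8.84 (7.98 to 9.90) against 10.65 (9.06 to 10.99) and a change of -1.48 ± 0.15. For Gstm1 the medians were 9.75 (8.53 to 11.07) and 11.89 (9.58 to 12.63), with a change of -2.08 ± 0.18. Gstm2 had 7.52 (6.30 to 8.49) and 9.42 (7.75 to 10.21), with a change of -1.80 ± 0.18. Each of these 4 fell in 24 of 25 pairs, and the pair against was pair 1 for Gsta3, Gstm1 and Gstm2 and pair 4 for Gsta4. Gstm7 (-0.79 ± 0.08), Gstm3 (-0.56 ± 0.10), Gstm4 (-0.38 ± 0.08) and, close to the lower limit, Gstm6 (-0.14 ± 0.05) fell by less. For 2 of them the probe set matters, since the second probe set of Gstm3 gave 0.08 ± 0.05 and that of Gstm7 0.00 ± 0.07, neither called. The mu gene Gstm5 was not called (-0.12 ± 0.09). Gsta2, the gene with the largest fall in liver, lay near the lower limit in breast (medians 3.98 and 4.07) and was not called (-0.14 ± 0.07, adjusted p = 0.0723).

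The remaining falls were of other classes. Gsto2 fell in all 25 pairs, from a median of 5.11 (4.18 to 6.58) to 3.98 (3.50 to 4.63), by 1.22 ± 0.13. Gstt2 fell by 0.84 ± 0.14, and the pi genes Gstp3 and Gstp1 by 0.58 ± 0.15 and 0.30 ± 0.07. Gstp3 did not keep its direction in the 10 pairs of lower sample numbers (0.04). Sult5a1 fell from 6.91 (5.11 to 7.32) to 5.44 (4.79 to 6.57), a change of -1.30 ± 0.13 in 23 of 25 pairs (adjusted p = 1.87e-09).

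The 5 genes that rose in breast include a theta transferase and a cholesterol sulfotransferase with large changes. Gstt3 ran from 7.42 to 10.79 with a median of 10.12 in tumor-bearing mice and from 6.74 to 10.04 with a median of 7.77 in controls. It rose 4.09-fold (2.03 ± 0.21, adjusted p = 5.46e-09) in 23 of 25 pairs, all but pairs 1 and 2. Sult2b1, which sulfates cholesterol and pregnenolone, ran from 5.74 to 7.91 with a median of 7.19 against 4.68 to 7.50 with a median of 5.27. Its rise of 3.27-fold (1.71 ± 0.16, adjusted p = 1.32e-09) was again seen in all but pairs 1 and 2. Gsto1 had medians of 10.85 (10.12 to 12.33) and 10.38 (9.26 to 11.30) and rose by 0.60 ± 0.16 (adjusted p = 0.00179). Sult1d1 had medians of 4.69 (4.05 to 5.41) and 4.13 (3.77 to 4.79) and rose by 0.54 ± 0.09 near the lower limit, and its second probe set rose by 0.12 ± 0.04. Gstt1 had medians of 10.80 (9.67 to 11.58) and 10.34 (8.86 to 11.17) and rose by 0.36 ± 0.11 (adjusted p = 0.00447). The last 3 were smaller than the first 2, and their groups overlapped over most of their range.

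**Figure D3:**
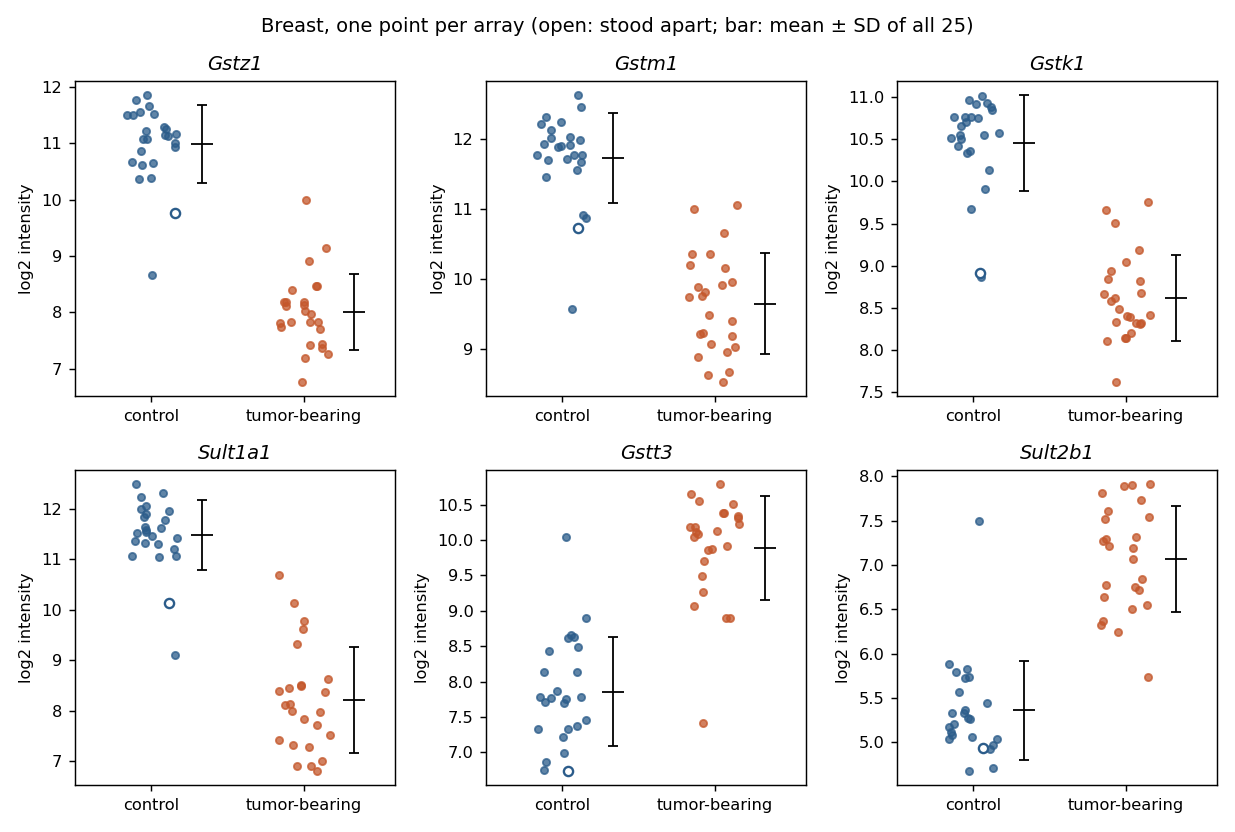
Log2 intensity of 6 genes in each breast array, 25 controls in blue and 25 tumor-bearing mice in orange, with an open circle for the control that stood apart and bars for mean ± SD of all 25. Gstz1, Gstm1, Gstk1 and Sult1a1 are lower in tumor-bearing mice (medians 7.97, 9.75, 8.48 and 8.10) and Gstt3 and Sult2b1 are higher (10.12 and 7.19); the single high control of Sult2b1 at 7.50 is that of pair 1.

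UDP-glucuronosyltransferases in breast were called only in small falls at dim signals. Ugt2b36 had medians of 4.33 (4.08 to 4.69) and 4.67 (4.20 to 6.29), a change of -0.33 ± 0.09. Ugt3a2 had 4.11 (3.90 to 4.42) and 4.28 (3.92 to 5.56), a change of -0.21 ± 0.08. Ugt2b34, at 3.52 (3.50 to 3.68) and 3.64 (3.50 to 5.54), was at the lower limit in 12 tumor-bearing mice and 4 controls, and its change was -0.19 ± 0.08. Its other probe set went the other way without passing (0.04 ± 0.03, adjusted p = 0.242 over all probe sets). Ugt2a3 (-0.17 ± 0.05) and Ugt2b35 (-0.14 ± 0.05) were like it. The Ugt1a locus, outside the single-symbol genes, was brighter in this tissue, and its 3 probe sets fell (-1.87 ± 0.20, -1.99 ± 0.21 and -2.25 ± 0.22, with adjusted p of 7.77e-09, 1.04e-08 and 2.47e-09 over all probe sets).

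Pairs 1 and 2 went against the other pairs more often than any other pair of breast, for 17 and 11 of the 26 called genes. Without these pairs and pair 4, over 22 pairs, 5 genes rose and 22 fell, where 31.8% and 35.8% of all genes were called. This set was not planned beforehand, and pairs 1 and 2 were left out for their lower Erbb2 signal. Because they went against many of the called genes, larger changes without them carry no added support. The changes then were -3.62 ± 0.22 for Sult1a1, -3.26 ± 0.14 for Gstz1, 2.20 ± 0.14 for Gstt3 and 1.90 ± 0.12 for Sult2b1.

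Markers of cell types of the mammary fat pad changed in the same samples, where 30% of all genes were called higher and 32.3% lower. Adipocyte markers fell in 12 of 12 genes (median -3.39), with a mean level of 7.29 to 11.6 in tumor-bearing mice against 10.2 to 12.7 in controls. Skeletal muscle markers fell in 13 of 13 (median -2.83), with a mean level of 5.10 to 12.3 against 5.79 to 13.8. Markers of B cells fell in 7 of 7 (-1.79), of T cells in 7 of 7 (-1.10), and of basal and myoepithelial cells in 6 of 9 (-1.07). Luminal epithelial markers rose in 9 of 12 and fell in 1 (median 1.65), with a mean level of 9.09 to 10.7 against 7.97 to 10.2. The 3 prime to 5 prime ratio fell for Gapdh (-0.76 ± 0.17) and for actin (-0.39 ± 0.08), each with an adjusted permutation p of 5e-04, so the control RNA had the higher ratio. The part of the cell mix and of RNA integrity in the breast changes was not tested.

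The pathway lists in breast are read against the 30% of all genes called higher and 32.3% called lower. The family of the membrane-bound glutathione transferases had 4 of 6 genes lower, with Mgst3 (-1.80 ± 0.14) and the prostaglandin synthase Ptges (-1.80 ± 0.19). Other conjugating transferases fell in 9 of 12 and rose in 1, with the methyltransferases Inmt (-3.70 ± 0.32), Hnmt (-2.94 ± 0.27) and Tpmt (-1.97 ± 0.16). Of the genes of glutathione synthesis, use and NRF2 targets 10 of 24 rose and 8 fell, near the shares of all genes, and Gpx3, the secreted glutathione peroxidase, fell by 1.45 ± 0.18. The PAPS synthases again went opposite ways (Papss1 1.49 ± 0.12, Papss2 -2.27 ± 0.21), within a list of 14 sulfate genes of which 5 rose and 3 fell. Conjugate transporters fell in 8 of 16 genes and rose in 1. Genes of UDP-glucuronate supply and glucuronide hydrolysis fell in 2 of 7 and rose in 2. The counts of the sulfate and UDP-glucuronate lists are likewise near those shares or below them.

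The difference between the tissues was tested on the liver change minus the breast change. It passed for 18 of 43 genes over all pairs, where 40.5% of all genes passed, and for 32 of 43 without the pairs standing apart, where 56.6% did. The fit takes the pairs of both tissues as independent, although sample numbers link their mice, and with linked mice as a block 17 of 43 passed, where 39.5% of all genes did. The counts of 18 and 17 are near those shares of all genes. Differences above 0 over all pairs were largest for Sult1a1 (3.21 ± 0.34) and Gstz1 (3.0 ± 0.29), which fell in breast and were called in liver only without the pairs standing apart. Differences below 0 included Gsta2 (-2.41 ± 0.20) and Ugt2b37 (-2.40 ± 0.31), which fell in liver and were not called in breast, and Sult2b1 (-1.79 ± 0.18), which rose in breast and was not called in liver. In breast Gsta2 lay near the lower limit (means 4.03 and 4.17), as did 9 of 10 UDP-glucuronosyltransferases, so a fall could hardly show there. The differences of Gsta2 and Ugt2b37 are nearly their liver changes alone (breast changes -0.14 and -0.02). Sult2b1 was likewise dim in liver (means 4.28 and 4.36).

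Gstt3 was the one gene that fell in liver and rose in breast over all pairs. Its liver change minus its breast change was -3.60 ± 0.33 (limma, adjusted p = 7.2e-13 over all genes), and -3.83 ± 0.27 without the pairs standing apart. Over those kept pairs Gstt1, Gsto1 and Sult1d1 were also called in opposite directions, with differences of -0.90 ± 0.11, -0.97 ± 0.14 and -0.95 ± 0.11. In the whole set the difference passed for Gsto1 (-0.78 ± 0.30, adjusted p = 0.0321) and Sult1d1 (-0.65 ± 0.24, adjusted p = 0.0227; 0.0508 with linked mice as a block) but not for Gstt1 (-0.65 ± 0.34, adjusted p = 0.132). Of the other theta genes Gstt2 fell in both tissues and Gstt4 was called in neither. Genes lower in both tissues over all pairs were Gstm4, Gsto2, Gstt2 and Sult5a1, out of 9 called lower in liver and 21 in breast. Over all genes 58.3% of those lower in liver were then also lower in breast, and 4.12% of those lower in breast were lower in liver. Without the pairs standing apart there were 18, which is 18 of the 33 called lower in liver and 18 of the 21 called lower in breast. Over all genes these shares were 56.8% and 27.2%. The 18 of 33 is near its share, and the 18 of 21 stands beside 33 of all 43 genes lower in liver. None of the 43 was called higher in liver in either set of pairs, so none could be higher in both.

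**Figure D4:**
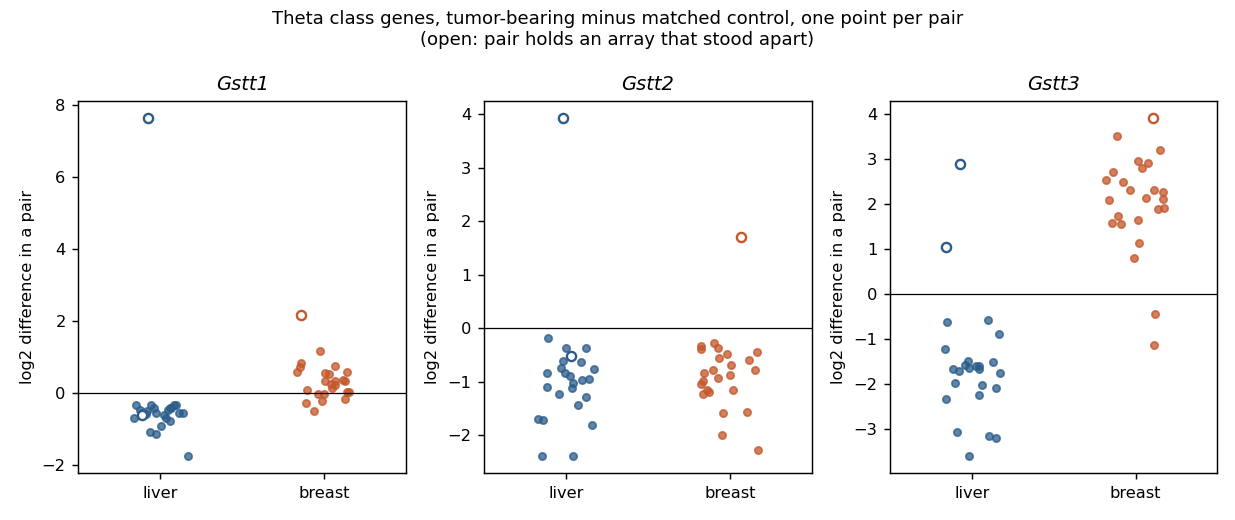
Log2 difference of each matched pair, tumor-bearing minus control, for Gstt1, Gstt2 and Gstt3 in liver (blue) and breast (orange); open circles are pairs with an array standing apart. For Gstt3 the liver pairs other than 2 and 7 lie below 0 and the breast pairs other than 1 and 2 lie above 0, while Gstt2 lies below 0 in both tissues except for liver pair 2 and breast pair 4.

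In spleen 4 of 43 genes rose and 4 fell, where 22.4% of all genes were called higher and 18.3% lower. Gstp3 was higher in 25 of 25 pairs, with a median of 9.65 (7.80 to 10.39) against 8.56 (5.72 to 9.82) and a change of 1.33 ± 0.15 (adjusted p = 6.49e-08). Gstm5 had 11.50 (10.18 to 12.12) against 10.63 (9.21 to 12.99), a change of 0.88 ± 0.20, and over the 23 pairs without arrays standing apart it was higher in every pair (1.12 ± 0.11). Gsta4 (0.44 ± 0.11) and Gsto1 (0.29 ± 0.06) rose. Gstk1 had medians of 8.17 (7.78 to 10.37) and 8.44 (7.94 to 12.37) and fell by 0.52 ± 0.16, or by 0.30 ± 0.05 over the 23 pairs. Gstt2 (-0.43 ± 0.15), Sult1a1 (-0.41 ± 0.10) and Gstm2 (-0.32 ± 0.12) fell too. These 4 genes also fell in breast over all pairs, as did 21 of all 43. In liver they fell over its 23 kept pairs, as did 33 of all 43, but over all liver pairs only Gstt2 was called. Of the 4 genes that rose in spleen, Gsto1 rose in breast as well. The shares of such overlaps over all genes are not given here. Over the 23 pairs 7 genes rose and 7 fell, where 29.5% and 26.6% of all genes were called, so the shares lie below those of all genes. Neutrophil markers rose in 12 of 12 and erythroid markers in 6 of 7 in spleen. B cell markers fell in 2 of 7 and T cell markers in 1 of 7 over all pairs, and both in 7 of 7 over the 23. The 3 prime to 5 prime ratio of Gapdh rose in spleen over all pairs (0.12 ± 0.05, adjusted permutation p = 0.0431) and gave 0.10 ± 0.04 over the 23 (adjusted permutation p = 0.0965). The part of these cells and of RNA integrity in the spleen changes was not tested.

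In blood cells 3 of 43 genes rose and 0 fell, where 8.66% of all genes were called higher and 4.27% lower. They were Gstp3, with medians of 9.05 (8.17 to 10.00) and 7.99 (5.85 to 10.27) and a change of 1.00 ± 0.23 (adjusted p = 0.00298), Gstt1, with 7.70 (6.13 to 9.81) and 6.89 (6.04 to 8.50) and a change of 0.75 ± 0.17, and Gstm5, with 10.21 (8.53 to 11.26) and 9.75 (5.95 to 10.90) and a change of 0.64 ± 0.19. For each gene the groups overlapped, and each gene was higher in 20 or 21 of 25 pairs. Without the pairs standing apart the same 3 rose, where 10.3% of all genes were called higher and 11.5% lower. In the 10 pairs of lower sample numbers limma called 0 of the 43, where 1.67% of all genes were called higher and 0.0769% lower, and 1 of the 43 had an unadjusted p under 0.05. Over all pairs 38 of the 43 changes in blood were below 0 and 5 above, with a median of -0.16 against -0.03 over all genes. Of the 43 genes 19 had an unadjusted p under 0.05 in either direction, and the share over all genes is not given here. In blood 28 of the 43 had a median within 1 log2 unit of the lower limit. Neutrophil markers rose in 9 of 12 in blood, with a mean level of 8.10 to 10.9 against 5.51 to 7.62, and B cell markers fell in 6 of 7, and their part was not tested. Gstp3 and Gstm5 thus rose in both spleen and blood, while in liver neither was called over all pairs, and Gstt1 also rose in breast. In thymus limma called 0 of 43 genes in either direction, where 0.011% of all genes were called higher and 0% lower, and 1 of the 43 had an unadjusted p under 0.05.

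**Figure D5:**
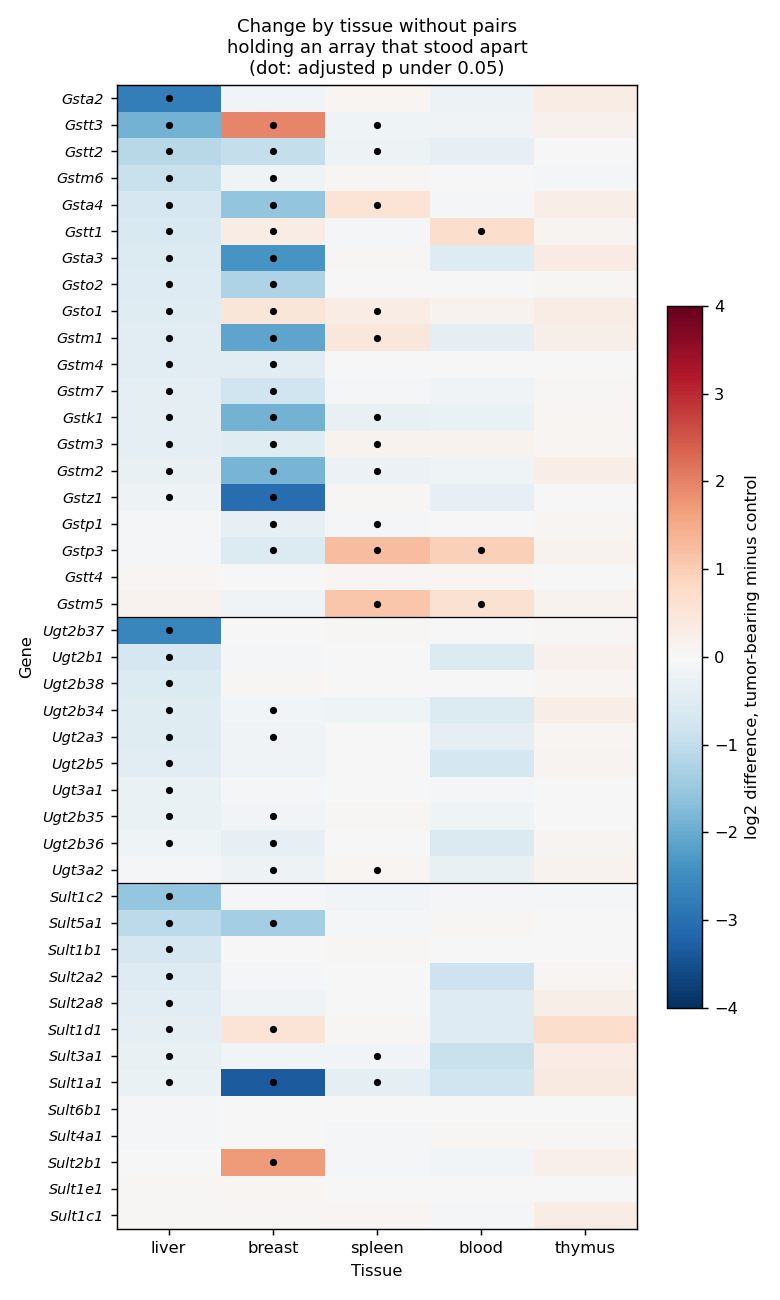
Log2 difference, tumor-bearing minus matched control, of the 43 genes (rows, families divided by lines) in 5 tissues (columns), without the pairs holding an array that stood apart; blue is lower and red higher in tumor-bearing mice, and a dot marks an adjusted p under 0.05. Liver has 33 dots, all for lower values, breast has 26, spleen 14, blood 3 and thymus 0.

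The stretches of genome just before the start of 4 genes are shown because they carry the contrasts above: Gsta2 and Gsta3, a pair of alpha genes of which the first fell most in liver and the second fell strongly in breast, and Gstt1 and Gstt3, theta genes that were called in opposite directions in liver and breast, Gstt1 only without the pairs standing apart. Each is the 250 bases upstream of the transcription start from RefSeq, build GRCm38.p6, written 5′ to 3′ on the gene's strand. Capitals mark matches, on either strand, to letters searched in all such windows. Positions are chr9:78347146-78347395 (minus strand) for Gsta2, chr1:21240335-21240584 (plus) for Gsta3, chr10:75797732-75797981 (minus) for Gstt1 and, for the first of 2 windows of Gstt3, chr10:75781415-75781664 (minus).
Gsta2: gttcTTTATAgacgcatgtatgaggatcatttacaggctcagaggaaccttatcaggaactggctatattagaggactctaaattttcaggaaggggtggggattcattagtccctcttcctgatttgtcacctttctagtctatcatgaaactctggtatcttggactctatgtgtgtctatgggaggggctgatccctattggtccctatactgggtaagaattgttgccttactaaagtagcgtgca
Gsta3: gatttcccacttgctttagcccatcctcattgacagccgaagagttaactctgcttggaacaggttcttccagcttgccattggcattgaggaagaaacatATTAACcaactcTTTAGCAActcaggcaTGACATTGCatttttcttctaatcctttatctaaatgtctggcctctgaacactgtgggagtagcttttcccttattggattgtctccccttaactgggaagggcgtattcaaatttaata
Gstt1: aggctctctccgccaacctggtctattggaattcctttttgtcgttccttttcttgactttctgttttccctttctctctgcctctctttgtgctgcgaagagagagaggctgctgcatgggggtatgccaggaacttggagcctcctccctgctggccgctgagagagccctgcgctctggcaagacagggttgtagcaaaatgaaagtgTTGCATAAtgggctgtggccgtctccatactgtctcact
Gstt3: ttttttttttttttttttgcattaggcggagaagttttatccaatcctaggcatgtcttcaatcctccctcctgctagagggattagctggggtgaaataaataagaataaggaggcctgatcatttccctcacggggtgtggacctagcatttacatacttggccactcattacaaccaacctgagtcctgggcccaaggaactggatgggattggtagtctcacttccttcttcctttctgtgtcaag

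Of the 43 genes 38 had an upstream window. A gene is counted if any of its windows holds the letters, and some of the genes have 2 or 3 windows. The shares beside these counts are per window, over 32851 windows of 27025 genes. The units therefore differ, and the counts of genes cannot be set directly against those shares. The core letters of the antioxidant response element, TGACNNNGC, were found for Gsta3, Gstm5 and Gstm7, 3 of 38 genes, where 10.2% of all 32851 windows hold them. In Gsta3 the match starts 121 bases before the transcription start, and next to it, on the reverse strand at 137 bases, lie the letters TTGCNNAA of C/EBP factors, which also appear 39 bases before the start of Gstt1. The C/EBP letters were found for 7 genes, against 9.56% of all windows. TATAAA was found for 6 genes, against 12.4%, and the capitals in Gsta2 are its reverse form 246 bases before the start. The HNF1 half-site GTTAAT was found for 5 genes, Gsta3, Sult1a1, Sult1d1, Ugt2a3 and Ugt3a1, against 6.43% of all windows, and in Gsta3 it lies on the reverse strand 149 bases before the start. An HNF4 site, CAAAGTCCA, was found for none of the 38 (0.384% of all windows). The window of Gstt3 held none of these letters. A match describes the letters only.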

How the data were processed

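The values are probe set intensity on a linear scale, deposited by the authors already summarised and normalized by methods not given in the sources used here. A lower limit was set at the 5th percentile of all intensities (11.3, or 3.50 on the log2 scale) before taking log2. Genes were named from the platform's probe-to-gene table with symbols updated through GRCm38.p6. One probe set was used per gene, that of the highest mean over all arrays. Each tissue was fitted separately in limma 3.58.1 (R 4.3.3), with a block for each matched pair and moderated variances. The p-values of all 18194 genes were adjusted by Benjamini and Hochberg's method, and the threshold for a call was 0.05. The difference between liver and breast was tested on the within-pair differences of all genes; it was to be printed for members called in opposite directions, and those of other members were added after their values were seen. The fit was checked on simulated data. For arrays, their number limits the precision.

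The pairs come from the labels, which name each mouse's age- and cage-matched partner. Deviations from the group means correlated within pairs with a median of 0.312 (liver), 0.0818 (breast), 0.151 (spleen), 0.216 (blood) and 0.249 (thymus), and across other pairings with medians of -0.0216 to 0.0113. Values by group are given, in liver and in breast, for up to 8 glutathione transferases, 4 UDP-glucuronosyltransferases and 4 sulfotransferases with the largest called change, for 3 genes in each other tissue, and for up to 4 called genes of smallest p in a pathway list. Other members are named with their change, and Gsto1 and Gstt1 in breast and Gstt1 in liver were given by group after their values were seen. The members and the lists were chosen with earlier results of these data known. Sample number blocks were read from the sample numbers in the labels. Alternatives covered the block, the lower limit, the probe set, normalization, dim genes, array runs, sample numbers and arrays standing apart.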

Additional observations from a re-analysis of the deposited data

Results flagged for a closer look

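The change in liver differed from the change in breast for 18 of the 43 genes over all pairs (limma on within-pair differences, adjusted p under 0.05 over all genes), where 40.5% of all genes did. The count is thus near the share of all genes. The difference, liver change minus breast change, was below 0 for Gstt3 (-3.60), Gsta2 (-2.41), Ugt2b37 (-2.40), Sult2b1 (-1.79), Sult1c2 (-1.29), Gsto1 (-0.782), Sult1d1 (-0.651) and Ugt2b38 (-0.584). It was above 0 for Sult1a1 (3.21), Gstz1 (3.0), Gsta3 (2.03), Gstm1 (1.95), Gstk1 (1.78), Gstm2 (1.76), Gsta4 (1.05), Gsto2 (0.711), Gstp3 (0.705) and Gstm7 (0.673). Among the genes below 0, Gsta2 and Sult1c2 lay near the lower limit in breast, where a fall could hardly show. So did 9 of 10 UDP-glucuronosyltransferases, and the breast changes of Ugt2b37 and Ugt2b38 were -0.02 and 0.01. Sult2b1 was dim in liver (change -0.08), and its difference came mainly from its rise in breast (1.71). For Gstt1 the difference passed without the pairs holding an array that stood apart (-0.902, adjusted p = 4.55e-10). With linked mice as a block Sult1d1 did not pass (adjusted p = 0.0508). Over all pairs the liver changes of Gsto1 and Sult1d1 alone did not pass (adjusted p = 0.703 and 0.786).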

How the results depend on the processing

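The number of genes called moved most with the arrays. In liver the count of lower genes, 9 over all pairs, was 33 without pairs standing apart, 32 in the pairs of higher sample numbers, 1 in those of lower numbers and 20 in the latter without the pairs standing apart, which was chosen after seeing the data, and 1 gene was higher in the higher numbers. In breast 3 genes were higher with dim genes left out and 3 in the lower numbers, and 9 were lower with dim genes left out, where 13 of the 43 genes remained. In spleen 2 were higher and 2 lower in the higher numbers, 2 lower in the lower numbers, and 7 higher and 7 lower without pairs standing apart. In blood 0 were higher in the lower numbers, 2 were lower in the higher numbers, and 1 was lower with dim genes left out, with no lower limit, with quantile normalization and without other array runs. With no replicate block for the pair 1 gene was lower in spleen, where Gstk1, Gstm2 and Gstt2 lost their calls, and Gstm5 lost its call in blood (adjusted p = 0.114). The block changed no call in liver or breast. The liver minus breast difference passed for 32 genes without pairs standing apart, against 18 over all pairs. That of Sult1d1 was -0.65 with linked mice as a block (adjusted p = 0.0508), and Gstt1's was -0.90 without pairs standing apart, where it passed. In breast Gstm3 changed by 0.0805 and Ugt2b34 by 0.0409 without the _x_at and _s_at probe sets, and Gstp3 by 0.0436 in the lower numbers; the cause was not tested. Of the other values of called genes under alternatives, 106 of liver kept their call and 9 lost it, as did 279 and 16 of breast, 86 and 10 of spleen and 31 and 5 of blood, with the direction kept. Dim signals limit the UDP-glucuronosyltransferases and sulfotransferases of breast and blood.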
